A study of Chlorocebus sabaeus with 10 samples.

Results

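Growth factor receptors and the proteins that feed them were followed in liver biopsies of 10 female vervet monkeys (Chlorocebus sabaeus). The 10 transcripts were those whose gene symbol in the count table was MET, EGFR, ERBB2, ERBB3, FGFR4, KLB, GHR, PRLR, MST1 or HGFAC, of 28078 transcripts in all, and each symbol had 1 transcript. They were selected on gene name with earlier results of these libraries in view, and the lower MET level on the fructose diet was already known. The members' diet differences are therefore given as descriptions, not as tests. All animals ate chow before the study, after which 5 were fed a high fructose (HFr) diet and 5 stayed on chow for 6 weeks. Each animal gave 1 poly(A)-selected RNA library from frozen whole tissue, so fewer cells of a type and less RNA per cell cannot be told apart. The question was how a short exposure to fructose alters liver transcripts.

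MET is the tyrosine kinase receptor for hepatocyte growth factor (HGF), a signal from non-parenchymal cells that drives hepatocyte survival and regrowth. HGF is secreted as an inactive chain that proteases such as HGFAC cut, and hepatocytes secrete the related ligand MST1, whose receptor is MST1R. EGFR, ERBB2 and ERBB3 form pairs that bind the EGF and neuregulin ligands, with ERBB3 depending on a partner for kinase activity. FGFR4 with its co-receptor KLB receives FGF19 from the gut and represses bile acid synthesis, and GHR and PRLR are cytokine receptors that signal through JAK2 and STAT5.

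Values are normalized counts in CPM, that is, counts scaled to a common library total after TMM correction for composition, and are given as mean ± SD. The libraries held 2977282 to 4992505 estimated counts, of which 34.7 to 73.6% lay on mitochondrial transcripts, leaving 864571 to 2657103 on nuclear transcripts. Hepatocyte markers were abundant in every animal, with a summed level of 38206 to 77140 CPM on chow and 46897 to 73059 CPM on HFr. The cholangiocyte markers summed to 5.96 to 32.7 CPM, and 4 of 6 skeletal muscle markers were at 0 in all animals. Of the other lists, the stellate and fibroblast markers summed to 222 to 404 CPM on HFr and 179 to 822 CPM on chow, with LRAT at 0 in all animals. Of its 6 tested genes 5 had a lower mean on HFr. ACTA2, a contractile protein of activated stellate and smooth muscle cells, was 5.17 ± 2.23 CPM on HFr and 15.8 ± 10.4 CPM on chow. It was the single marker of any list with an unadjusted p under 0.05. Its log2 fold change was -1.57 (SE 0.49) with an edgeR p of 0.0065, and its part in the members' differences was not tested. Macrophage, lymphocyte, blood and endothelial marker sums overlapped between the diets. In all, 7 members entered the comparison, and EGFR, KLB and PRLR had too few counts.

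Across 7948 tested transcripts edgeR's quasi-likelihood test gave an adjusted p under 0.05 to 0 (0%), and the smallest adjusted p was 0.872. DESeq2 gave an adjusted p under 0.05 to 2 transcripts, none of them a member. An unadjusted p under 0.05 was reached by 341 (4.29%), 177 lower on HFr (2.23%) and 164 higher (2.06%). Of the 7 tested members 3 had an unadjusted p under 0.05, with MET and ERBB3 lower and MST1 higher on HFr. MET was the 1 member whose diets did not overlap, a pattern seen lower on HFr in 26 tested transcripts (0.327%) and higher in 17 (0.214%). Since MET helped to choose the list, nothing is read from these shares. The median log2 fold change was -0.03 over the 7 members and -0.00069 over all tested transcripts.

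The MET transcript lay on chromosome 21 from 85397645 to 85488093 on the plus strand of ChlSab1.1, and the member adjusted p-values were all 0.9996. On chow the 5 animals stood at 57.2, 57.4, 55.0, 49.2 and 55.2 CPM, and on HFr at 34.1, 23.2, 27.7, 48.1 and 32.8 CPM. The highest HFr animal, replicate 4, sat just under the lowest chow animal. The log2 fold change was -0.72 (SE 0.19), and without HFr replicate 4 it was -0.91. The coefficient of variation of MET was 6.07% on chow and 28.4% on HFr, where counting alone would give about 7.69% and 9.56%. Without HFr replicate 4, the highest HFr animal, the HFr value was 17.02%. Leaving out an extreme animal tends to lower the spread, and the difference in spread between the diets was not tested. Of the 2151 tested transcripts within a factor of 2 of its level, 0.976% had a lower variation than MET on chow. On HFr 74.5% had a lower one. The chow value of MET lay below that of counting alone, and MET was chosen with its diet difference known. Nothing is read from these ranks.

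HGF, the MET ligand, was 21.9 ± 8.71 CPM on HFr and 15.3 ± 5.59 CPM on chow. It was higher by 0.50 on the log2 scale (SE 0.29), with an unadjusted edgeR p of 0.108. That value ranged from 0.25 without HFr replicate 3 to 0.65 without chow replicate 1. The unadjusted p was under 0.05 in 1 of 22 alternative settings, the fit without HFr replicate 4 (0.63). HGFAC (chromosome 27, 45283206 to 45290644), the serine protease that activates HGF, had nearly equal means of 141 ± 82.6 CPM on HFr and 144 ± 42.8 CPM on chow. Its 5 HFr values were 79.0, 117, 120, 286 and 103 CPM, so that replicate 4 alone lay above the chow range of 80.3 to 198 CPM. The log2 fold change of -0.03 (SE 0.33) became -0.46 without that animal. HPN, a second protease acting on HGF, differed by 0.06 (SE 0.23). PLXNB1, a semaphorin receptor that binds MET at the cell surface, was 24.4 ± 6.58 CPM on HFr and 15.5 ± 4.88 CPM on chow. It was higher by 0.66 on the log2 scale (SE 0.25), with an unadjusted edgeR p of 0.018, and 3 HFr animals exceeded all chow animals. Without HFr replicate 2, HFr replicate 4 or chow replicate 3 that p was above 0.05. The same held when scaled by library size alone and without the animals above 65% mitochondrial counts.

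MST1, the macrophage-stimulating protein made by hepatocytes, went the other way from MET. Its transcript lay on chromosome 22 from 11074114 to 11083368. The HFr animals stood at 162, 98.0, 94.6, 164 and 132 CPM and the chow animals at 64.2, 88.1, 88.2, 126 and 56.6 CPM. Chow replicate 4 was the single animal that kept the diets from separating, since the other 4 chow animals lay below every HFr animal. The log2 fold change was 0.62 (SE 0.24), and leaving out 1 animal at a time gave 0.51 to 0.80. Without HFr replicates 1 or 4 or chow replicates 1 or 5, or scaled by library size alone, its unadjusted p was no longer under 0.05. APEH overlapped 3979 bases of the MST1 locus on the opposite strand, and whether the counting used strand is not given in the sources used here. APEH itself differed by 0.05 (SE 0.24).

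MST1R, the receptor for MST1, lay 209.894 kb from MST1 on the same chromosome and was scarce, with 4 to 29 counts per animal. It was 2.48 ± 1.55 CPM on HFr and 4.78 ± 2.07 CPM on chow, a log2 fold change of -0.91 (SE 0.48) with an unadjusted edgeR p of 0.078. Of the chow animals 4 lay above every HFr animal and replicate 3, at 1.28 CPM, did not. Without HFr replicate 4 or chow replicate 3 the unadjusted p fell under 0.05, at log2 fold changes of -1.33 and -1.19. Those animals were the highest on HFr and the lowest on chow. In 18 of 21 alternative settings that p was above 0.05. Of the 20 genes listed for HGF and MST1, 14 were tested. Of these, 2 had an unadjusted p under 0.05 higher on HFr (MST1 and PLXNB1) and 1 lower (MET). That was 21.4% of them, beside 4.29% of all tested transcripts. MET and MST1 are members chosen with earlier results in view, so nothing is read from that share. The scaffold GAB1, which docks on MET, had 0 to 5 counts per animal and was not tested.

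**Figure D1:**
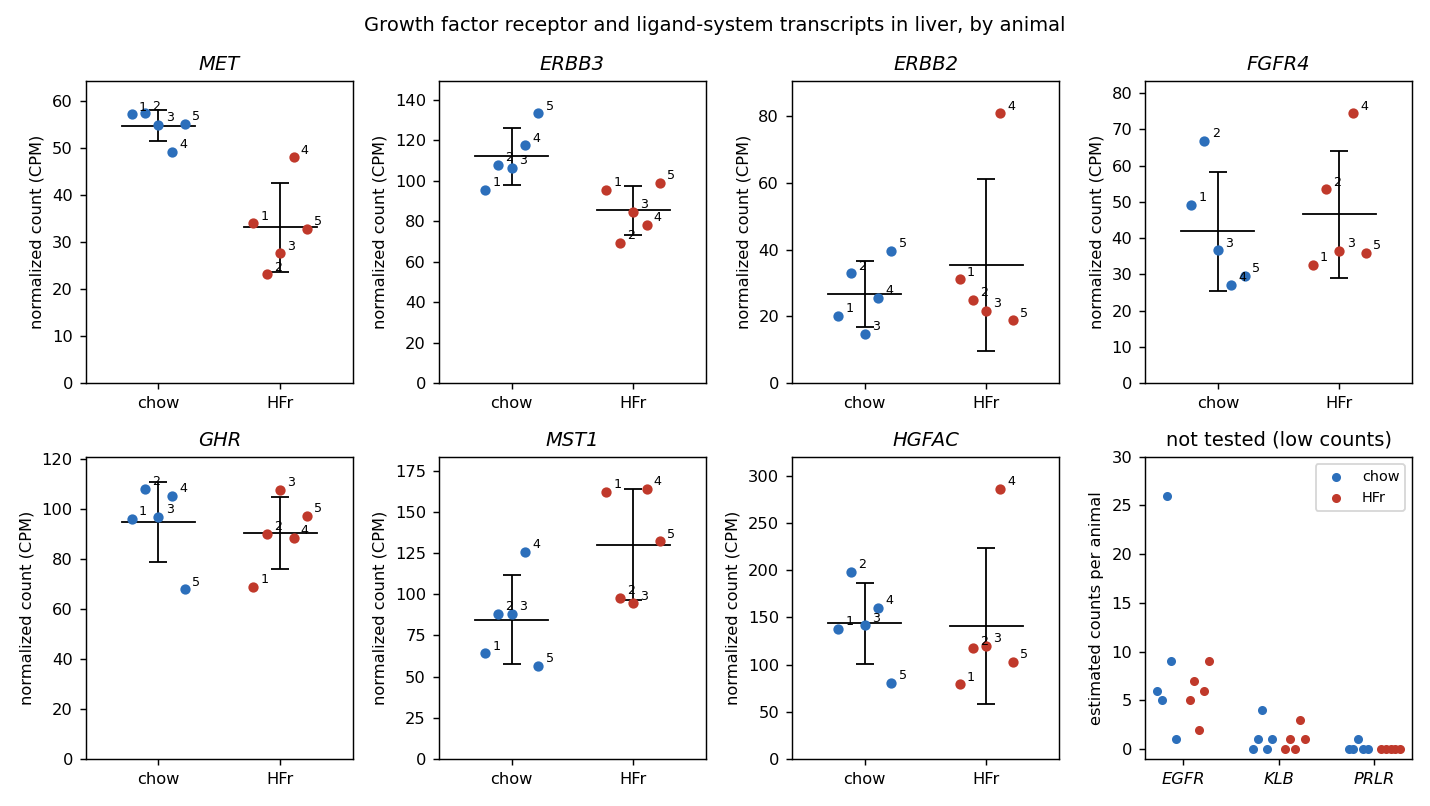
Normalized count (CPM) of the 7 tested transcripts in each animal, with replicate numbers, on chow (blue) and HFr (red). Lines and bars are the mean ± SD, and the last panel gives estimated counts of EGFR, KLB and PRLR. MET on chow sits in a narrow band of 49.2 to 57.4 CPM above all HFr animals, and HFr replicate 4 stands far up for ERBB2 and HGFAC.

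Within the EGF receptor family ERBB3 (chromosome 11, 52021058 to 52044028), the kinase-impaired partner for neuregulin signals, was lower on HFr. Its chow values were 95.6, 108, 106, 117 and 133 CPM and its HFr values 95.4, 69.3, 84.6, 78.3 and 99.0 CPM. Below every chow animal lay 4 HFr animals, and HFr replicate 5 was above chow replicate 1. The means were 85.3 ± 12.2 and 112 ± 14.2 CPM, a log2 fold change of -0.39 (SE 0.17). The unadjusted p was under 0.05 in 14 of 22 alternative settings. The other 8 included those without HFr replicates 2, 3 or 4 or chow replicates 4 or 5.

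ERBB2 (chromosome 16, 66434251 to 66464952), the preferred partner of ERBB3, gave no such order. The HFr animals stood at 31.1, 24.95, 21.6, 80.8 and 18.9 CPM and the chow animals at 20.2, 32.8, 14.8, 25.6 and 39.7 CPM. HFr replicate 4 was 3.35 times the mean of the other 4 HFr animals, and 3.21% of tested transcripts were at least 2 times that mean in this animal. The log2 fold change of 0.44 (SE 0.39) turned to -0.14 without it. Near ERBB2 on chromosome 16, GRB7 and STARD3 were also high in this animal, at 2.46 and 2.15 times the other HFr animals. PGAP3 stood at 1.49 times and MIEN1, which overlaps 993 bases of ERBB2 on the opposite strand, at 0.69 times. The other tested genes within 500 kb of ERBB2 ranged from 0.87 times for RPL19 to 1.87 times for NR1D1. GRB7 and STARD3 were singled out after their values were seen. ERBB3 in the same animal was 0.90 times the others.

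EGFR, the founding member of the family, had 1 to 26 counts per animal, with the highest value in chow replicate 3. A count of 3 corresponds to 0.546 to 1.51 CPM in these libraries, and EGFR was 1.47 ± 0.426 CPM on HFr and 2.43 ± 2.03 CPM on chow. In a fit of every transcript with a count its log2 fold change was -0.70 (SE 0.54), with an unadjusted edgeR p of 0.204. Low values in this table cannot be read as absence, since genes that nearly all cells use were low too. The membrane protease ADAM10 averaged 1.2 counts per animal and the phosphatase PTPN11 1.0.

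Among the ligands EGF was 11.8 ± 6.98 CPM on HFr and 7.93 ± 4.59 CPM on chow. HBEGF, a ligand shed from the cell surface, was 9.07 ± 6.54 and 13.4 ± 9.17 CPM, and neither had an unadjusted edgeR p under 0.05 (0.215 and 0.241). ERRFI1, the feedback inhibitor that binds the EGFR kinase, was 85.0 ± 25.2 CPM on HFr and 100.8 ± 22.1 CPM on chow (log2 fold change -0.25, SE 0.23). TGFA was listed at 0 in all animals, NRG1 had at most 1 count in any animal, and ERBB4 was not analysed here. Of the 22 genes listed for this family 8 were tested and 1 (ERBB3, a member) had an unadjusted p under 0.05. That was 12.5% of those tested, beside 4.29% of all tested transcripts. It rests on a member chosen with earlier results in view, so nothing is read from that share.

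FGFR4 (chromosome 23, 79097429 to 79105456), the main FGF receptor of hepatocytes, showed wide overlap. The HFr values were 32.6, 53.5, 36.5, 74.4 and 36.0 CPM and the chow values 49.3, 66.8, 36.6, 27.1 and 29.7 CPM. FGFR4 had a log2 fold change of 0.15 (SE 0.28), which changed sign to -0.09 without HFr replicate 4. KLB, its co-receptor, had 5 counts in all HFr animals together and 6 in all chow animals, too few for a comparison. FGF19 had 5 counts, all in chow replicate 2. FGF21, a hormone secreted by the liver itself, ranged from 0.668 to 23.2 CPM on HFr and from 0.227 to 41.5 CPM on chow. The counts of FGF21 per animal ran from 3 to 118 on HFr and from 1 to 228 on chow. Its log2 fold change of -0.66 (SE 0.999) became 1.5005 without chow replicate 3.

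CYP7A1, the rate-limiting enzyme of bile acid synthesis that FGF19 signals repress, was 4.003 ± 4.80 CPM on HFr and 7.08 ± 2.60 CPM on chow. The 3 lowest HFr animals, at 0.221 to 1.123 CPM, lay below all chow animals but held only 3, 2 and 1 counts. The unadjusted edgeR p was 0.230. The log2 fold change of -0.85 (SE 0.68) became -0.53 without HFr replicate 4 and -1.84 without HFr replicate 5, where the unadjusted p was under 0.05. In 19 of 21 alternative settings that p was above 0.05. FGFR1, FGFR2 and FGFR3 had log2 fold changes of -0.29, -0.14 and 0.25, with standard errors of 0.24 to 0.33. FGFRL1, an FGF receptor that lacks the kinase part, was higher on HFr. Its HFr values were 19.5, 15.6, 23.2, 20.7 and 21.4 CPM and its chow values 11.3, 15.2, 16.4, 14.6 and 9.58 CPM. Of the HFr animals 4 exceeded every chow animal. FGFRL1 was higher by 0.56 on the log2 scale (SE 0.19), with an unadjusted edgeR p of 0.010. That p was above 0.05 when scaled by library size alone and without the animals above 65% mitochondrial counts. FGFRL1 was the 1 gene with an unadjusted p under 0.05 among 11 tested of the 17 listed for FGF19 and FGF21. That was 9.09% of those tested, beside 4.29% of all tested transcripts. This list too was chosen with earlier results in view, and nothing is read from that share.

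GHR, the growth hormone receptor (chromosome 4, 41285712 to 41464666), differed between the diets by less than the spread between animals. The HFr animals stood at 68.9, 90.2, 108, 88.5 and 97.47 CPM and the chow animals at 96.2, 108, 96.9, 105 and 68.0 CPM. Its log2 fold change was -0.07 (SE 0.18), and the lowest animals of the diets were at 68.9 and 68.0 CPM. PRLR, the prolactin receptor on the same chromosome 4, had 1 count in chow replicate 3 and 0 in the other animals. GHR's relays were JAK2, at 18.2 ± 1.79 CPM on HFr and 20.6 ± 6.77 CPM on chow, and STAT5B, at 29.2 ± 4.95 and 33.4 ± 1.32 CPM. IGF1, the secreted growth factor that growth hormone induces, was 4.82 ± 1.87 and 4.83 ± 2.06 CPM.

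SOCS2 and CISH, feedback inhibitors of growth hormone signaling that STAT5 induces, had lower mean levels on HFr. SOCS2 stood at 39.7, 29.0, 18.4, 16.8 and 5.70 CPM on HFr and at 89.9, 36.1, 43.5, 19.1 and 77.6 CPM on chow. Each of the 5 HFr animals stood under the mean of the chow animals, and chow replicates 2 and 4 lay within the HFr range. Its log2 fold change was -1.30 (SE 0.46), with an unadjusted edgeR p of 0.013 that stayed under 0.05 in 22 of 22 alternative settings. CISH stood at 1.497, 2.45, 2.81, 3.97 and 8.25 CPM on HFr and at 14.98, 13.9, 10.7, 4.02 and 2.28 CPM on chow. Chow replicates 1 to 3 exceeded all HFr animals and chow replicates 4 and 5 did not. Chow replicates 4 and 5 had mitochondrial shares of 73.6 and 68.7%, and a relation of CISH to that share was not tested. The log2 fold change of CISH was -1.27 (SE 0.49), with an unadjusted edgeR p of 0.021. That p was above 0.05 in 4 of 21 alternative settings, among them those without chow replicate 1 or 2. SOCS2 and CISH were the 2 genes with an unadjusted p under 0.05 among 14 tested of the 19 listed for growth hormone and prolactin. That was 14.3% of those tested, beside 4.29% of all tested transcripts. This list was chosen with earlier results in view, so nothing is read from that share. No adjusted p was under 0.05, and a difference between SOCS2 or CISH and GHR was not tested.

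**Figure D2:**
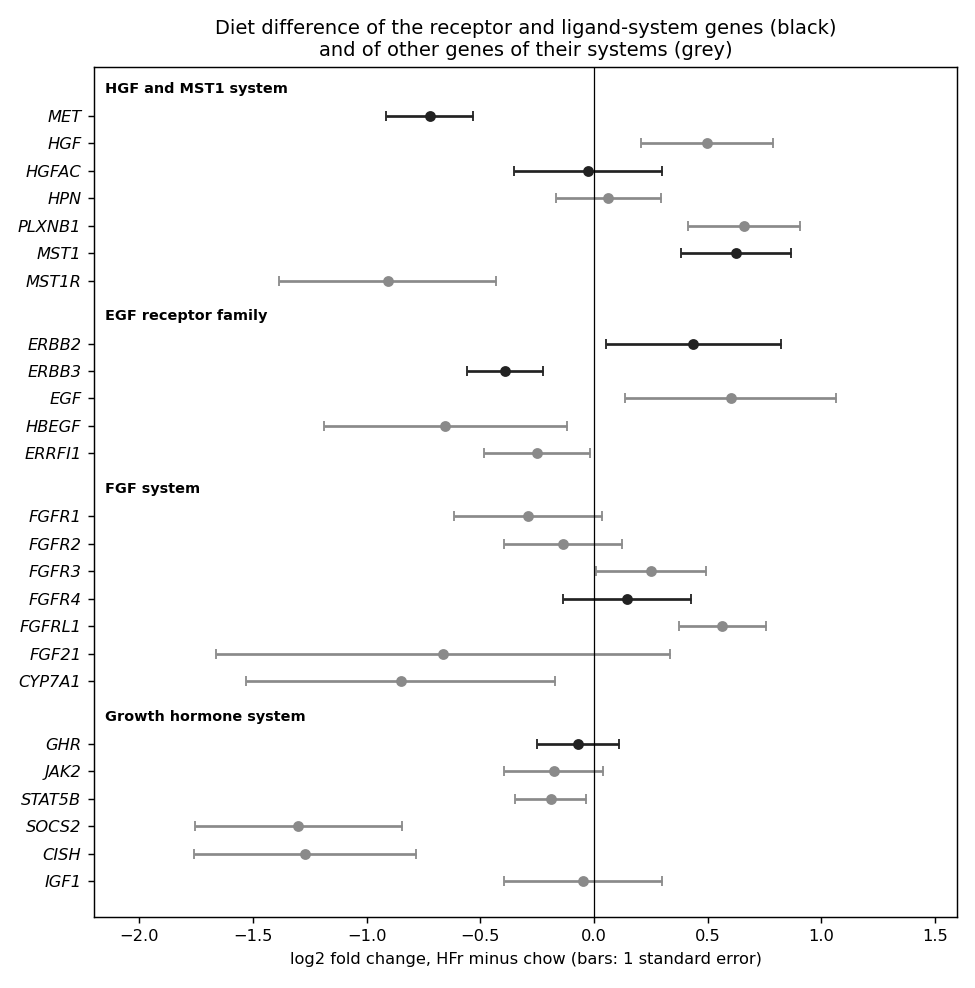
Log2 fold change, HFr minus chow, with bars of 1 standard error, for the 7 tested receptor and ligand-system transcripts (black) and for other genes of their systems (grey). MET lies at -0.72, MST1 at 0.62, HGF at 0.50 and MST1R at -0.91, and SOCS2 and CISH lie below GHR. HGF and MST1R had an unadjusted p above 0.05 in the reported fit, and no difference between genes was tested.

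Downstream of the receptors, the shared relays were examined in the same fit. Of 24 genes of the RAS-MAPK and PI3K relay 16 were tested and 0 had an unadjusted edgeR p under 0.05, and the same held for 7 tested of 15 feedback genes of that pathway. The feedback phosphatase DUSP6 differed by -0.29 (SE 0.40). The immediate early genes EGR1 and FOS had the largest differences of that list, -1.41 (SE 0.87) and -1.27 (SE 0.78), with wide scatter in both diets. KDR, the vascular endothelial growth factor receptor of endothelial cells, was the 1 of 18 other tested receptor tyrosine kinases with an unadjusted p under 0.05, with a log2 fold change of 0.57 (SE 0.19) and an edgeR p of 0.011. Scaled by library size alone, KDR was above that threshold. The endothelial markers as a list summed to 353 to 463 CPM on HFr and 280 to 485 CPM on chow. Their part in the KDR difference was not tested. BMPR1A, a bone morphogenetic protein receptor, was the 1 of 10 tested cytokine and growth factor receptors under that threshold, with a log2 fold change of -0.46 (SE 0.20) and an edgeR p of 0.037. BMPR1A was above that threshold in 9 of 22 alternative settings, among them DESeq2 and the fits without HFr replicates 1, 3 or 5 or chow replicates 1 or 5. In all, 6 of 91 tested genes of these lists that are not members had an unadjusted p under 0.05, or 6.59% beside 4.29% of all tested transcripts. The lists were chosen with earlier results of these data known, so nothing is read from this share.

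**Figure D3:**
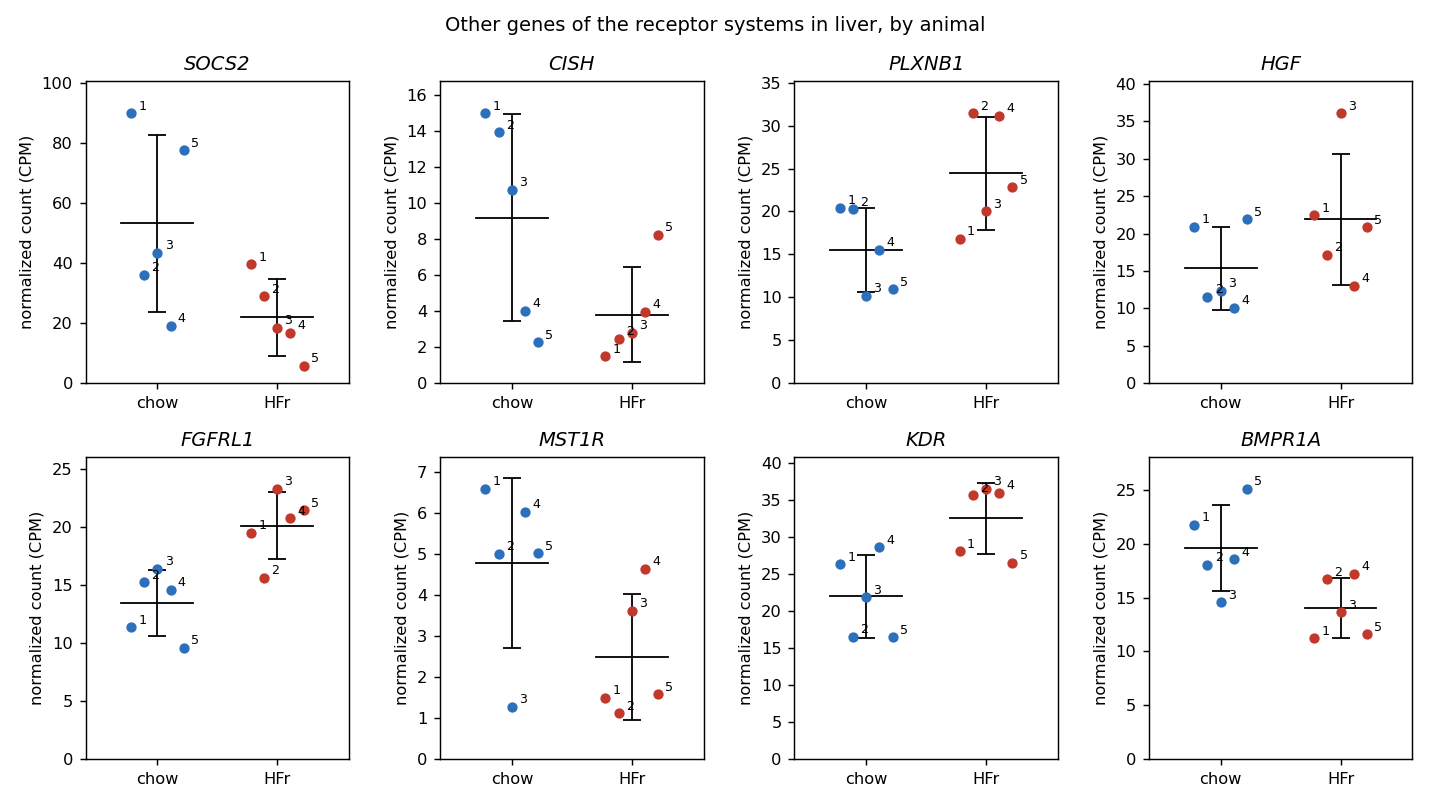
Normalized count (CPM) by animal for genes of the receptor systems that were named by rule, on chow (blue) and HFr (red), with the mean ± SD. The diets overlap in every panel, with 4 HFr animals above all chow animals for FGFRL1 and 3 HFr animals below all chow animals for SOCS2.

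The members were next compared with each other across animals after the mean of each diet was subtracted, so that the diet difference played no part. Among 21 pairs of the 7 tested members, 15 had a positive Pearson r and 0 had an adjusted p under 0.05 in two-sided exact permutation tests within diets. FGFR4 and HGFAC had the highest r, 0.75 (Spearman's rho 0.58). Its exact permutation p was 0.016 for r and 0.098 for rho, adjusted to 0.337 and 0.602. Without HFr replicate 4 and chow replicate 2, the animals farthest from the median for FGFR4, r was 0.33. Leaving out such animals tends to lower r. Within the diets r was 0.90 on HFr and 0.58 on chow. ERBB3 and FGFR4 ran in opposite directions with r = -0.68 and rho = -0.72, at exact permutation p = 0.046 and 0.032, adjusted to 0.481 and 0.602. That value was -0.68 without HFr replicate 2 and chow replicate 5, and within the diets it was -0.73 on HFr and -0.64 on chow. MET and ERBB2 had r = 0.65 and rho = 0.52 (exact permutation p = 0.123 and 0.161, adjusted to 0.503 and 0.602), and r was 0.20 without HFr replicates 2 and 4.

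HFr replicate 4 was the highest HFr animal for 5 of the 7 tested members, namely MET, ERBB2, FGFR4, MST1 and HGFAC. Over all tested transcripts it was the highest HFr animal in 23.7%, and the other 4 animals in 17.9 to 19.8%. Its mitochondrial share of 62.2% was inside the range of the other HFr animals. None of the 7 members was related to the mitochondrial share within diets after adjustment, with r from -0.51 for FGFR4 to 0.35 for ERBB3 and the smallest adjusted exact permutation p at 0.820 for r and 0.651 for rho. Scaled by library size alone, without TMM, all 21 pairs of members had a positive r, among them ERBB3 with FGFR4 at 0.71. In that scaling the r with the mitochondrial share was negative for all 7 members, from -0.93 for ERBB3 to -0.29 for ERBB2. Of these, 5 had an adjusted exact permutation p under 0.05 (3 by Spearman's rho). Mitochondrial counts are part of the library size, so a nuclear transcript scaled by it falls as their share rises. These values and the 21 positive pairs follow at least in part from the scaling, and no relation is read from them.

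**Figure D4:**
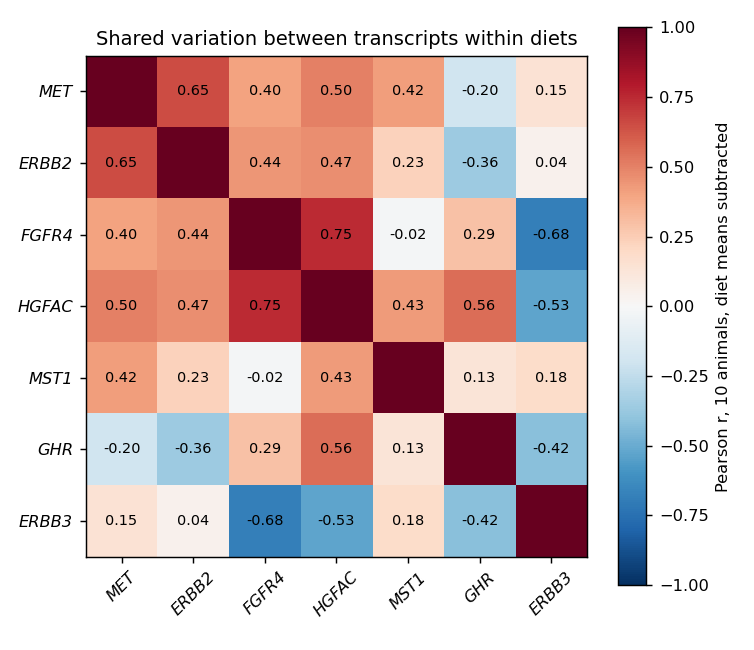
Pearson r between the 7 tested transcripts over 10 animals, on log2(CPM + 1) with the mean of each diet subtracted. FGFR4 with HGFAC (0.75) and ERBB3 with FGFR4 (-0.68) are the strongest positive and negative pairs, and none passed adjustment.

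The 5 tested transcripts whose within-diet pattern was most like that of MET were CFAP298 (r = 0.90), PPP1R21 (0.90), ADAMTS10 (0.89), SARDH (0.87) and AFM (0.86), over 10 animals. They were chosen by that r, which is a description. Their own log2 fold changes lay between -0.34 for AFM and 0.16 for ADAMTS10. Along the chromosome, 4 tested genes lay at least in part within 500 kb of MET. CAV1, which encodes a coat protein of caveolae, was lower on HFr by 0.83 on the log2 scale (SE 0.35), with an unadjusted edgeR p of 0.030. CAV1 had 9 to 44 counts per animal and was singled out after its values were seen. CAV2, CAPZA2 and ST7 differed by 0.17, 0.01 and -0.10, with standard errors of 0.17 to 0.29.

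Across the 22 alternative settings MET stayed lower, between -0.91 and -0.62 on the log2 scale. MST1 stayed between 0.51 and 0.80 and ERBB3 between -0.45 and -0.27. The sign for ERBB2, FGFR4, GHR and HGFAC depended on which animals were included.

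**Figure D5:**
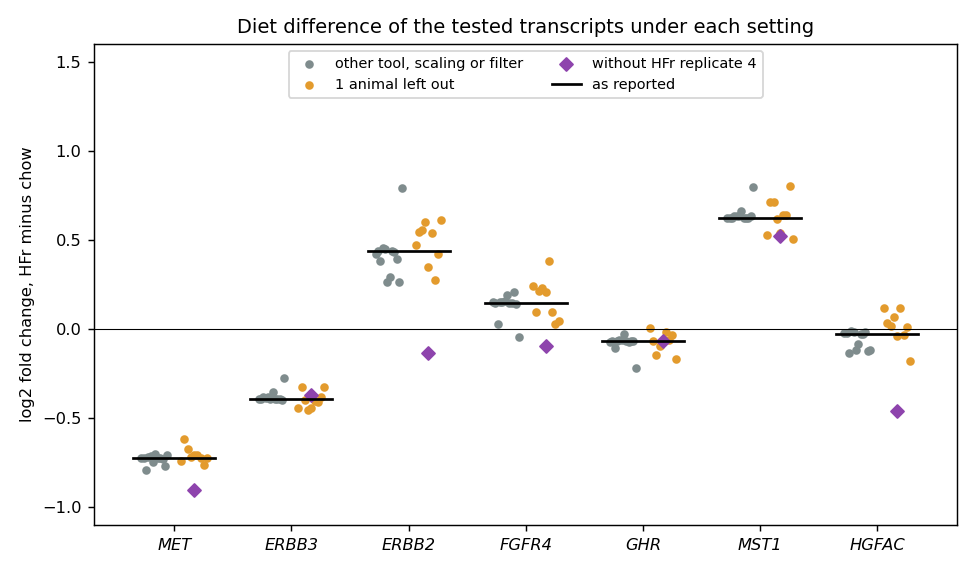
Log2 fold change, HFr minus chow, of the 7 tested transcripts as reported (line), under other tools, scalings or filters (grey), with 1 animal left out (orange) and without HFr replicate 4 (diamond). MET, ERBB3 and MST1 keep their sign in every setting, and the diamond crosses 0 for ERBB2 and FGFR4.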

How the data were processed

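Total RNA from liver was made into Illumina TruSeq stranded mRNA libraries. The authors aligned paired-end reads to the ChlSab1.1 build with STAR 2.5.3a, and Partek Flow shared them among Ensembl transcripts with an expectation-maximization algorithm. The deposited estimated counts are not normalized, and the deposited signal values are those counts after TMM scaling by the authors. Here the estimated counts were rounded, filtered with filterByExpr (minimum count 10, minimum total 15) and scaled with TMM in edgeR 4.0.16 (R 4.3.3). The diets were compared in all 10 animals with edgeR's quasi-likelihood test, diet as the only term, and Benjamini-Hochberg adjustment over all tested transcripts at 0.05. The SE is the log2 fold change divided by the square root of F. Animals are the replicates. The alternatives used DESeq2 1.42.0, limma 3.58.1 (pseudocount 1), other filters and scalings, and left-out animals. Correlations were tested over 14400 exact permutations within diets.

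The members and gene lists were chosen with earlier results of these data known. Besides the members, the genes named by rule were those of each receptor-system list with an unadjusted p under 0.05, fixed ligands and regulators, and the 5 most like MET. Others, such as ACTA2 and genes beside a member, were named after their values were seen. Replicate numbers did not pair the animals. Levels are not compared between genes, since transcript lengths were not used here. Positions come from the authors' tables and count from 1, up to the last base. The procedure was tested on simulated data.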

Additional observations from a re-analysis of the deposited data

Results flagged for a closer look

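In 14 groups of 5 animals (7 tested transcripts on each diet), the gap of the highest or lowest animal to its neighbour was compared with the range of the group. ERBB2 in HFr replicate 4, at 80.8 CPM, was flagged with a gap of 0.80 of the range. HGFAC in the same animal, at 286 CPM, was flagged with the same share of its range. Both lie on different chromosomes, 16 and 27. Chance alone flags about 1 in 20 groups, and the part of this library in the ERBB2 and HGFAC values was not tested beyond leaving it out.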

How the results depend on the processing

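With 5 animals per diet, the standard errors of 0.17 to 0.39 on the log2 scale for the tested members set what could be seen, and EGFR, KLB and PRLR were limited by their counts. The count of transcripts with an unadjusted p under 0.05 was 341 and became 124 with library size only and 756 when every transcript with a count was tested. An adjusted p under 0.05 was given to 2 transcripts by DESeq2 and to 1 with library size only. Members with an unadjusted p under 0.05 numbered 3 and became 1 with library size only, and 1 to 3 with 1 animal left out (1 without HFr replicate 4 or chow replicate 5). Listed non-member genes under that threshold numbered 6 of 91 and became 10 when every transcript with a count was tested. That fit also tested more of the listed genes, and 4.71% of all its 16066 transcripts were under the threshold. The share of the listed genes was not computed there, so nothing is read from the 10. Members whose diets did not overlap became 0 with library size only. Their number was 2 (MET and MST1) without the 3 animals above 65% mitochondrial counts, a setting chosen after seeing the data. That setting leaves out chow replicate 4, which alone kept MST1 from separating, and fewer animals separate more easily. The share of all tested transcripts without overlap was not computed in these settings, so nothing is read from these counts. With library size only, 2 pairs of members and 5 members against the mitochondrial share had an adjusted p under 0.05 by Pearson's r. By Spearman's rho it was 0 pairs and 3 members. Mitochondrial counts are part of that library size, so these calls follow at least in part from the scaling. limma on the authors' normalized values gave 229 higher and 111 lower transcripts (67.4% higher), where the reported fit gave 164 and 177 (48.1%).

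Signs reversed with 1 animal left out for ERBB2 (-0.14 to 0.61), FGFR4 (-0.094 to 0.38), GHR (-0.17 to 0.0083), HGFAC (-0.46 to 0.12), FGF21 (-2.21 to 1.5005) and IGF1 (-0.23 to 0.28). FGFR4 was also -0.046 without the animals above 65%, FGF21 0.035 and 0.0025 in limma on both scales and IGF1 0.0215 in limma on the authors' values. The causes were not tested. The fit with the replicate number as a replicate block gave 271 transcripts and 3 members under an unadjusted 0.05. Same-numbered animals did not deviate together (correlations -0.29 to 0.099, with 0 of 5 over 0.1). Under the block CISH (-1.23) and BMPR1A (-0.47) lost an unadjusted p under 0.05.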
